A study of Mus musculus with 6 samples.

Results

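The Myc, Max and Mxd network was followed in RNA from the epithelial fraction of the colon of Lingo3-/- and wild type mice, with 3 libraries per genotype and 6 in all. Its members were chosen by symbol from a list of 10 genes: Myc, Mycl, Mycn, Max, Mxd1, Mxi1, Mxd3, Mxd4, Mnt and Mlx. Of these, 9 are listed in the authors' deposited table of the comparison. Mycn is not listed there and was taken from the count table by its Ensembl identifier in GENCODE M21. All 10 were among the 16856 genes that passed the filter on low counts, out of 46078 genes counted.

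Mice of both genotypes were 2 months old and were kept, per the labels, under naive conditions. Strain, sex and the way the Lingo3 allele was made remain not given in the sources used here. Epithelial cells were washed off the colon with EDTA and DTT per the protocol shared by the libraries. The label of wild type replicate 1 names 5 mM EDTA with 2.5 mM DTT, and those of the other 5 libraries name EDTA alone. The labels do not say whether each library of a genotype is a separate animal. The p-values therefore cover the spread among these libraries only, which may be technical. Gene positions are those of GENCODE M21 on GRCm38.

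Max is the shared partner of the network. Myc, Mycl and Mycn pair with Max and activate genes through the E-box, the DNA sequence CACGTG, and they drive ribosome production, metabolism and cell division. Mxd proteins and Mnt pair with Max at the same sites and repress through the Sin3 and histone deacetylase complex, and Mlx pairs with some Mxd proteins, with Mnt and with the glucose-responsive Mondo proteins. In the gut, Myc is a known target of Wnt signalling and marks the dividing cells of the crypt, whereas Mxd1 is known from differentiating cells.

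The E-box itself lies in the RefSeq promoter windows of 4 network genes, which are shown because the proteins of the network bind that sequence. RefSeq (GRCm38.p6) gave a window from 250 bases before to 50 bases after a transcription start for 9 of the 10 members, with none given for Myc. CACGTG reads the same on both strands and was searched as written. It occurred in the windows of Max, Mxd4, Mnt and Mlx, which is 4 of 9 members (44.4%), against 2187 of all 27025 genes with a window (8.09%). Each stretch runs 5′ to 3′ along its gene's strand, with the E-box in capitals.
Max, chr12:76962226-76962271, minus strand: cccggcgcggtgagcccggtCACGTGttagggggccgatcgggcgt
Mxd4, chr5:34187904-34187949, minus strand: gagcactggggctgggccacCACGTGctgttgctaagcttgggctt
Mnt, chr11:74830781-74830826, plus strand: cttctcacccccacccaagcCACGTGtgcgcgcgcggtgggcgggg
Mlx, chr11:101087230-101087275, plus strand: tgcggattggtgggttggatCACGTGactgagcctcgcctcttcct
In Max the E-box spans the start itself. In Mlx it ends 35 bases before the start, in Mnt 118 bases and in Mxd4 214 bases before it. A match in these letters is a description of the window and not a measured binding site.

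Total counts over genes were 11868000 to 17200931 in knockout libraries and 25010618 to 28029583 in wild type libraries, so that the knockout libraries were shallower. Levels are given in CPM, counts relative to each library's total multiplied by its TMM scaling factor. These factors were 1.055 to 1.131 in knockout and 0.856 to 0.948 in wild type. In that unit 3 counts, taken as the floor, were worth 0.154 to 0.240 in knockout and 0.113 to 0.140 in wild type. Mitochondrial transcripts took 35.5% ± 0.823 of counts in knockout and 46.8% ± 1.60 in wild type (SD, n = 3 each), with an exact 2-sided permutation p of 0.1, the smallest that 3 against 3 libraries allow. Lingo3 had 2, 0 and 1 counts in knockout replicates 1, 2 and 3 and 3, 3 and 1 counts in wild type replicates 1, 2 and 3. It lay at the floor in both genotypes and does not check the labels.

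Knockout was compared with wild type to ask how expression in the colon epithelial fraction differs when Lingo3 is deleted. Of the 10 network genes, Myc and Mycl rose, Mnt fell, and 7 did not pass an adjusted p of 0.05 by the quasi-likelihood test of edgeR, with Benjamini-Hochberg adjustment across all genes tested. The background was high, with 15.4% of all genes called, 9.43% higher and 5.97% lower. The higher genes made 61.2% of the calls, or 45.4% with upper-quartile factors and 92.8% with library totals only. At an unadjusted p under 0.05 there were 6 network genes. The share of all genes under that p was not taken, so such counts, here and for the lists below, are no result about the genes. The libraries of the 2 genotypes did not overlap for 5 network genes, against 35.6% of all genes. The median log2 fold change, knockout over wild type, was -0.03 over all genes tested. The number of genes called, 2596 in all, was 1371 without knockout replicate 2, 1124 without knockout replicate 3, 1672 without wild type replicate 2 and 1679 without wild type replicate 3. Of the network genes, 5 were called without wild type replicate 2.

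**Figure D1:**
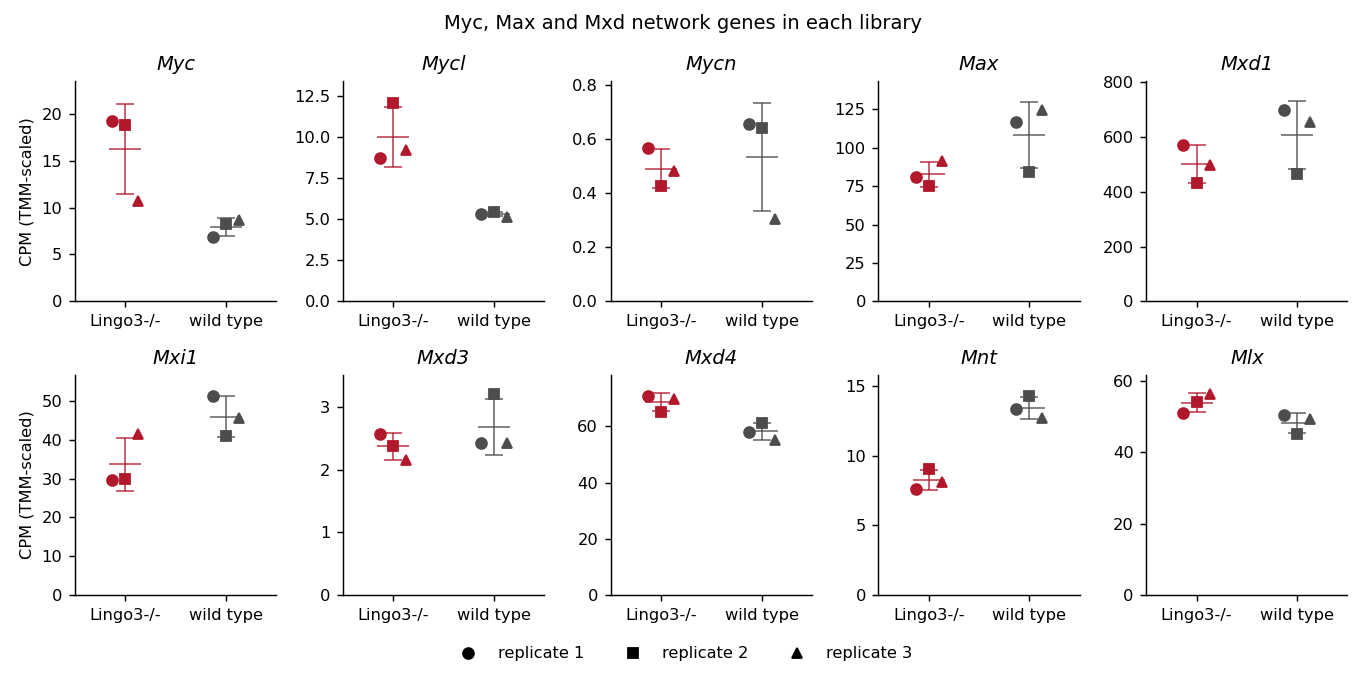
Level of each network gene in every library, in CPM scaled with TMM factors, with Lingo3-/- on the left and wild type on the right of each panel. Points are libraries, marked by replicate number, and bars are the mean and SD of 3 libraries. Myc, Mycl and Mnt separate the genotypes, as do Mxd4 and Mlx by smaller gaps, while Max, Mxd1, Mxi1, Mxd3 and Mycn overlap.

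Myc itself, the founding activator of the network, was about double in knockout. Myc (ENSMUSG00000022346) maps to chromosome 15 at 61985391 to 61990374, plus strand. Its level was 19.2, 18.8 and 10.7 CPM in knockout replicates 1, 2 and 3, against 6.87, 8.30 and 8.72 CPM in wild type replicates 1, 2 and 3. Every knockout library was above every wild type library, and knockout replicate 3 stood nearest to wild type. The means were 16.2 ± 4.80 CPM in knockout and 7.96 ± 0.966 CPM in wild type (SD, n = 3 each), so that the knockout libraries also spread more widely. The fitted log2 fold change was 1.04 ± 0.21 (SE; 95% interval 0.57 to 1.51; edgeR adjusted p = 0.0114), or 2.06-fold.

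Mycl, which encodes the relative L-Myc, rose by a similar factor. Mycl (ENSMUSG00000028654) maps to chromosome 4 at 122995652 to 123002485, plus strand. Its level was 8.75, 12.1 and 9.20 CPM in knockout replicates 1, 2 and 3, against 5.33, 5.43 and 5.16 CPM in wild type replicates 1, 2 and 3. The wild type libraries lay close together, all below the lowest knockout library, and the highest knockout library was replicate 2 and not replicate 1 as for Myc. The log2 fold change was 0.92 ± 0.16 (SE; 95% interval 0.57 to 1.27; edgeR adjusted p = 0.00438), or 1.89-fold.

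Mycn, which encodes N-Myc, was barely expressed. Mycn (ENSMUSG00000037169) maps to chromosome 12 at 12936093 to 12941914, minus strand. It had 11, 8 and 6 counts in knockout replicates 1, 2 and 3 and 14, 17 and 7 counts in wild type replicates 1, 2 and 3. The genotypes overlapped, and the fitted change was small beside its error (log2 -0.12 ± 0.42, SE; 95% interval -1.03 to 0.80; edgeR adjusted p = 0.872). The interval holds both a rise and a fall, and at these low counts neither was resolved.

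The levels of Myc and Mycl are those of a mixture of cells, in which more cells of a type and more RNA per cell cannot be told apart. Markers of dividing and crypt base cells were higher in the same libraries. Over all genes 9.43% rose and 5.97% fell. Of 10 proliferation markers 7 rose and 0 fell, with a summed level of 461 to 593 CPM in knockout and 343 to 389 CPM in wild type, though 3 rose without knockout replicate 2 or without wild type replicate 3. Of 10 crypt base and Wnt markers 7 rose and 0 fell, with 626 to 749 CPM in knockout and 381 to 416 CPM in wild type. Knockout replicate 3, lowest for Myc among the knockouts, had 476 CPM of proliferation markers and 681 CPM of crypt base markers, both above every wild type library. No marker on either list was at 0 in all libraries, and the part of these cells in the rise of Myc and Mycl was not tested.

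Markers of other cell types were read in the same way. Summed levels separated the genotypes for the T cell and the B cell and plasma cell markers, and overlapped for the other lists below. Of 10 T cell markers 8 fell, with a summed level of 143 to 230 CPM in knockout and 349 to 412 CPM in wild type. The B cell and plasma cell markers summed to 23.7 to 27.5 CPM in knockout and 31.3 to 61.7 CPM in wild type, with 3 of 8 lower, 1 without knockout replicate 2 or 3 and 5 without wild type replicate 1. The stromal markers summed to 266 to 551 CPM in knockout and 408 to 1142 CPM in wild type, with 1 of 9 lower and 3 without wild type replicate 3. Myeloid markers summed to 44.9 to 208 CPM in knockout, highest in replicate 1, and 75.9 to 89.3 CPM in wild type. Of 7 myeloid markers 1 fell, and 0 fell without knockout replicate 1, knockout replicate 2, wild type replicate 2 or wild type replicate 3, while 3 rose without knockout replicate 2. Pan-epithelial markers, which check the labelled fraction, summed to 5526 to 6901 CPM in knockout and 4623 to 5615 CPM in wild type. Of 8 of them 1 rose, with 2 without knockout replicate 1, 0 without knockout replicate 3 and 3 without wild type replicate 1. Differentiated colonocyte markers summed to 4396 to 5890 CPM in knockout and 5288 to 6099 CPM in wild type. Of 10 of them 1 fell, with 4 without wild type replicate 2 and 0 without any other single library. Against 9.43% of all genes higher and 5.97% lower, single calls among stromal, myeloid, pan-epithelial and colonocyte markers are close to the background. Those calls are no result about the lists. The median log2 fold change was -0.99 for stromal markers, with 1 of 9 positive, and -1.04 for T cell markers. It was 0.70 for myeloid, 0.22 for pan-epithelial and -0.28 for colonocyte markers, against -0.03 over all genes. For 3 of the 9 stromal markers every knockout library lay below every wild type library, against 16.0% of all genes. A lower stromal content in knockout was not tested. The part of these cell types in the network values was not tested.

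Max, the partner that every Myc, Mxd and Mnt protein can use, had a lower mean in knockout and did not pass the test. Max (ENSMUSG00000059436) maps to chromosome 12 at 76937269 to 76962201, minus strand. Its level was 81.2, 75.3 and 91.6 CPM in knockout replicates 1, 2 and 3, against 117, 84.1 and 125 CPM in wild type replicates 1, 2 and 3. Wild type replicate 2 fell within the knockout range and the other wild type libraries stood above it. Its fitted log2 fold change was -0.39 ± 0.14 (SE; 95% interval -0.71 to -0.08; edgeR adjusted p = 0.0903). Max passed the threshold without wild type replicate 2 (-0.53, edgeR adjusted p = 0.0168) and with no filter on low counts (0.00782), within a range of 0.00782 to 0.555 over its 15 alternatives.

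Among the Mxd repressors no gene passed the test, and the 4 did not share a direction in their fitted values. Mxd1 (ENSMUSG00000001156), which encodes Mad1, maps to chromosome 6 at 86647042 to 86669161, minus strand and was by far the most abundant. Its level was 572, 433 and 499 CPM in knockout replicates 1, 2 and 3, against 699, 466 and 656 CPM in wild type replicates 1, 2 and 3. The genotypes overlapped through wild type replicate 2, and replicate 2 was the lowest library of each genotype. Its fitted log2 fold change was -0.28 ± 0.17 (SE; 95% interval -0.64 to 0.09; edgeR adjusted p = 0.279).

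Mxi1 (ENSMUSG00000025025), which encodes Mxi1 or Mad2, came closest to the threshold among the genes that missed it. It maps to chromosome 19 at 53310518 to 53375810, plus strand, where 194 exonic bases are shared with Gm10197 on the opposite strand. Its level was 29.6, 29.9 and 41.5 CPM in knockout replicates 1, 2 and 3, against 51.3, 41.0 and 45.7 CPM in wild type replicates 1, 2 and 3. Knockout replicates 1 and 2 were below every wild type library, while knockout replicate 3 was just above wild type replicate 2. The log2 fold change was -0.46 ± 0.14 (SE; 95% interval -0.76 to -0.15), with an edgeR adjusted p of 0.0503. It passed in 9 of 15 alternatives, with log2 fold changes between -0.62 and -0.44 and adjusted p between 0.00118 and 0.0495 in those 9. Over all 15 the log2 fold change reached -0.17 and the adjusted p 0.291, both with library totals only. Without knockout replicate 3 the adjusted p was 0.0226, and without wild type replicate 2 it was 0.0495. In the authors' deposited table Mxi1 had a log2 fold change of -0.44 and an adjusted p of 0.0449.

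Mxd3 and Mxd4, the other Mxd genes, differed in abundance. Mxd3 (ENSMUSG00000021485), which is known from dividing cells, maps to chromosome 13 at 55325168 to 55329823, minus strand. It had 2.58, 2.39 and 2.16 CPM in knockout replicates 1, 2 and 3, against 2.43, 3.20 and 2.43 CPM in wild type replicates 1, 2 and 3. The genotypes overlapped (log2 fold change -0.18 ± 0.22, SE; 95% interval -0.67 to 0.31; edgeR adjusted p = 0.626). Mxd3 shares 105 exonic bases with Prelid1 on the opposite strand.

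Mxd4 (ENSMUSG00000037235), which encodes Mad4, maps to chromosome 5 at 34173883 to 34187720, minus strand. It had 70.9, 65.0 and 69.8 CPM in knockout replicates 1, 2 and 3, against 58.1, 61.3 and 55.2 CPM in wild type replicates 1, 2 and 3. All knockout libraries were above all wild type libraries, by a small margin. Its fold change did not pass the test (log2 0.24 ± 0.09, SE; 95% interval 0.04 to 0.43; edgeR adjusted p = 0.0978). With library totals only, where the median of all genes was 0.26, Mxd4 passed at 0.52 (edgeR adjusted p = 0.00148, with a range of 0.00148 to 0.21 over its alternatives). Mxd4 shares 514 exonic bases with Gm42846, annotated as antisense to it. Whether the counting used strand is not given in the sources used here. Values of Mxd3, Mxd4, Mxi1 and Mlx, which overlap genes on the opposite strand, are therefore less certain.

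Mnt was the repressor that fell. Mnt, which is known as the broadly expressed Max-bound antagonist of Myc, has the identifier ENSMUSG00000000282 and maps to chromosome 11 at 74830920 to 74845725, plus strand. Its level was 7.62, 9.02 and 8.08 CPM in knockout replicates 1, 2 and 3, against 13.3, 14.3 and 12.7 CPM in wild type replicates 1, 2 and 3. The knockout libraries lay close together and well below all wild type libraries. The means were 8.24 ± 0.712 CPM in knockout and 13.4 ± 0.797 CPM in wild type (SD, n = 3 each). The log2 fold change was -0.71 ± 0.13 (SE; 95% interval -0.98 to -0.43; edgeR adjusted p = 0.00469), which put Mnt in knockout at 0.613 of its wild type level.

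Mlx, which carries the Mondo branch of the network, did not pass the test. Mlx (ENSMUSG00000017801) maps to chromosome 11 at 101087277 to 101092207, plus strand and shares 385 exonic bases with Psmc3ip on the opposite strand. Its level was 51.0, 54.2 and 56.3 CPM in knockout replicates 1, 2 and 3, against 50.4, 45.1 and 49.2 CPM in wild type replicates 1, 2 and 3. The genotypes stood apart by a narrow gap, with a fitted log2 change of 0.16 ± 0.09 (SE; 95% interval -0.04 to 0.36; edgeR adjusted p = 0.262). It passed with library totals only, at 0.44 (edgeR adjusted p = 0.0022, with a range of 0.0022 to 0.5 over its alternatives). Among its partners, Mlxip, which encodes MondoA, had -0.14 ± 0.10 (SE; edgeR adjusted p = 0.349). Mlxipl, which encodes the carbohydrate response factor ChREBP, had -0.19 ± 0.13 (SE; edgeR adjusted p = 0.352). Mga, which encodes a large Max partner, stood at 67.3 ± 1.10 CPM in knockout and 67.3 ± 2.53 CPM in wild type (SD, n = 3 each), with a log2 fold change of 0.00 ± 0.09 and a 95% interval of -0.19 to 0.19. Mga was called with library totals only, at 0.28 (edgeR adjusted p = 0.037, with a range of 0.037 to 0.997 over its alternatives).

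**Figure D2:**
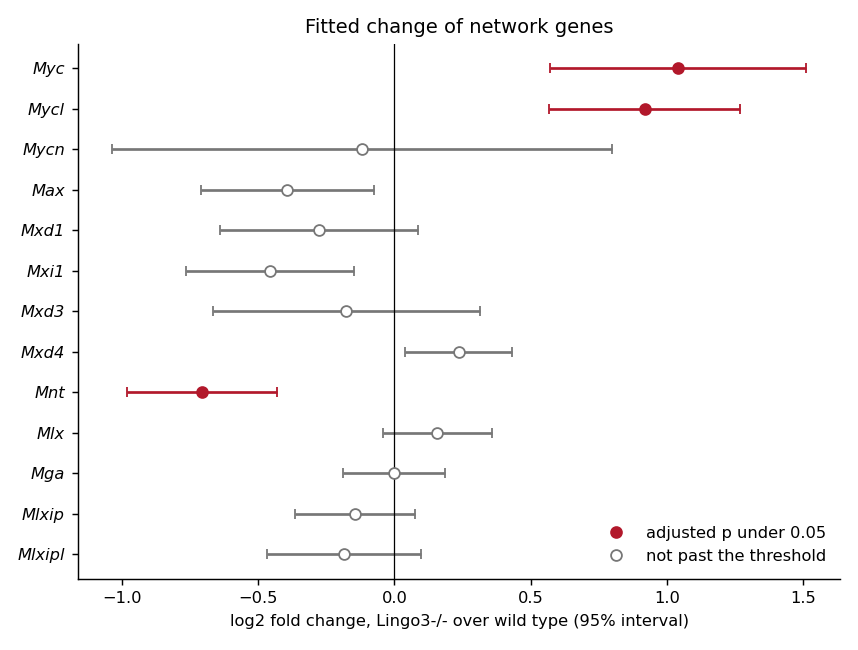
Fitted log2 fold change, Lingo3-/- over wild type, of the 10 network genes and 3 further partners, with 95% intervals from edgeR. Filled points passed an adjusted p of 0.05. The intervals of Myc and Mycl start at 0.57, that of Mnt ends at -0.43, and the interval of Mycn is the widest.

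Myc, Mycl and Mnt were also called in the authors' deposited table, with log2 fold changes of 1.05, 0.94 and -0.69, and those values come from the same libraries. The calls of these 3 genes held in all 15 alternatives in which they were tested, each single library left out included. Values on the log2 scale ran between 0.91 and 1.33 for Myc, between 0.76 and 1.20 for Mycl and between -0.77 and -0.42 for Mnt. The highest adjusted p was 0.0369 for Myc, 0.0202 for Mycl and 0.0366 for Mnt.

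Scaled by exon length, as RPKM, which is CPM divided by the kilobases of exon, the network genes spanned a wide range. Mxd1 was the most abundant in both genotypes, at 70.8 ± 9.85 RPKM in knockout and 85.8 ± 17.5 RPKM in wild type (SD, n = 3 each). It ranked above 97.9% of expressed protein-coding genes in knockout and 98.4% in wild type. Max had 23.0 ± 2.29 RPKM in knockout and 30.2 ± 5.99 RPKM in wild type, and Mlx had 26.9 ± 1.34 RPKM in knockout and 24.1 ± 1.39 RPKM in wild type. Max and Mlx overlapped each other in wild type and were separated in knockout only by a gap between 25.4 RPKM for Max and 25.5 RPKM for Mlx. RPKM used the merged exons of each gene, so a gene read mainly from a short isoform is understated.

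The middle and lower part of the order changed place between genotypes. Mxd4 had 8.08 ± 0.370 RPKM in knockout and 6.86 ± 0.354 RPKM in wild type (SD, n = 3 each), beside Mxi1 with 4.93 ± 0.996 RPKM in knockout and 6.74 ± 0.759 RPKM in wild type. These neighbours overlapped in wild type and not in knockout. Myc had 5.98 ± 1.77 RPKM in knockout, where it overlapped Mxi1, and 2.93 ± 0.356 RPKM in wild type, where it overlapped Mnt. Mnt had 1.78 ± 0.154 RPKM in knockout and 2.90 ± 0.172 RPKM in wild type, and Mycl had 2.48 ± 0.449 RPKM in knockout and 1.31 ± 0.0336 RPKM in wild type. In knockout every library had more Mycl than any had Mnt, and in wild type every library had less. Mxd3 followed with 1.00 ± 0.0878 RPKM in knockout and 1.14 ± 0.189 RPKM in wild type, where it overlapped Mycl. Mycn was last with 0.149 ± 0.0217 RPKM in knockout and 0.162 ± 0.0604 RPKM in wild type.

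**Figure D3:**
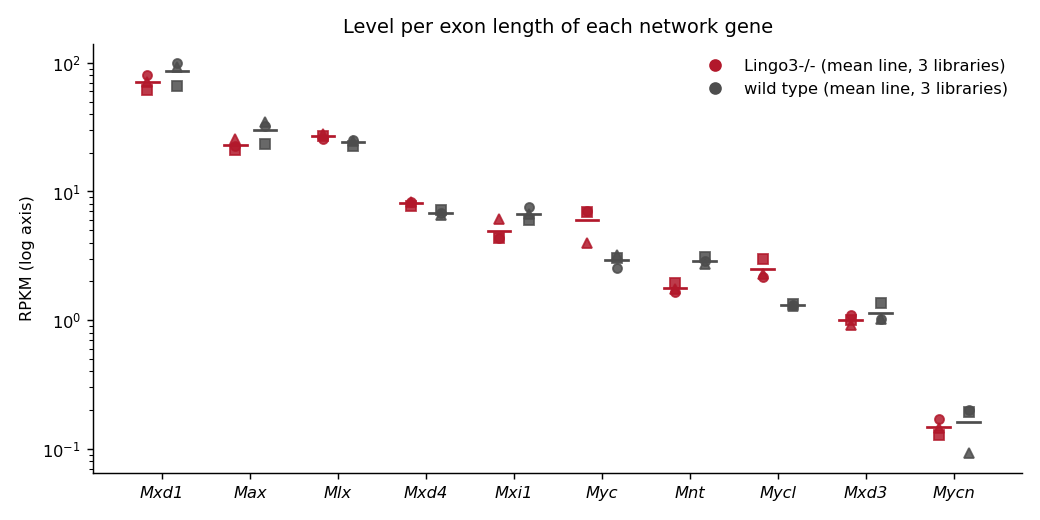
Level of each network gene in RPKM on a log axis, ordered by the wild type mean, with Lingo3-/- libraries to the left of wild type libraries. Points are libraries, with circles, squares and triangles for replicates 1, 2 and 3, and lines are means of 3. Mxd1 leads in both genotypes at 70.8 RPKM in Lingo3-/- and 85.8 RPKM in wild type, and Mycn is last.

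Set against each other within a library, transcripts of repressors and of Max were fewer per transcript of the Myc family in knockout. Such a ratio does not depend on how libraries are scaled, and it is given as a description with no test. The summed level of Myc, Mycl and Mycn was 9.41, 10.05 and 6.37 RPKM in knockout replicates 1, 2 and 3, against 4.05, 4.59 and 4.58 RPKM in wild type replicates 1, 2 and 3. The summed level of Mxd1, Mxd3, Mxd4 and Mxi1 was 94.6, 74.2 and 85.7 RPKM in knockout and 114, 80.5 and 107 RPKM in wild type, in the same order of replicates. The Myc family separated the genotypes and the Mxd family did not.

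The Mxd sum was 10.1, 7.38 and 13.5 times the Myc family sum in knockout replicates 1, 2 and 3, against 28.2, 17.5 and 23.4 times in wild type replicates 1, 2 and 3. Max was 2.40, 2.08 and 3.997 times the Myc family sum in knockout, against 8.02, 5.09 and 7.57 times in wild type. Mnt was 0.233, 0.281 and 0.443 of Myc in knockout, against 1.14, 1.01 and 0.856 of Myc in wild type. For each ratio all knockout libraries lay below all wild type libraries, and knockout replicate 3 lay nearest to wild type. Each ratio is divided by Myc or by the Myc family sum, which already separated the genotypes, as Mnt did. The ratios therefore restate those changes and are no further result. Transcripts of Mxd genes exceeded those of the Myc family in all 6 libraries.

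The make-up of each family overlapped between genotypes. Myc made 68.7% ± 6.598 of the Myc family sum in knockout and 66.4% ± 3.80 in wild type (SD, n = 3 each), and Mycl made 29.5% ± 6.37 in knockout and 29.9% ± 2.41 in wild type. Mxd1 made 83.4% ± 1.80 of the Mxd sum in knockout and 85.04% ± 2.72 in wild type.

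**Figure D4:**
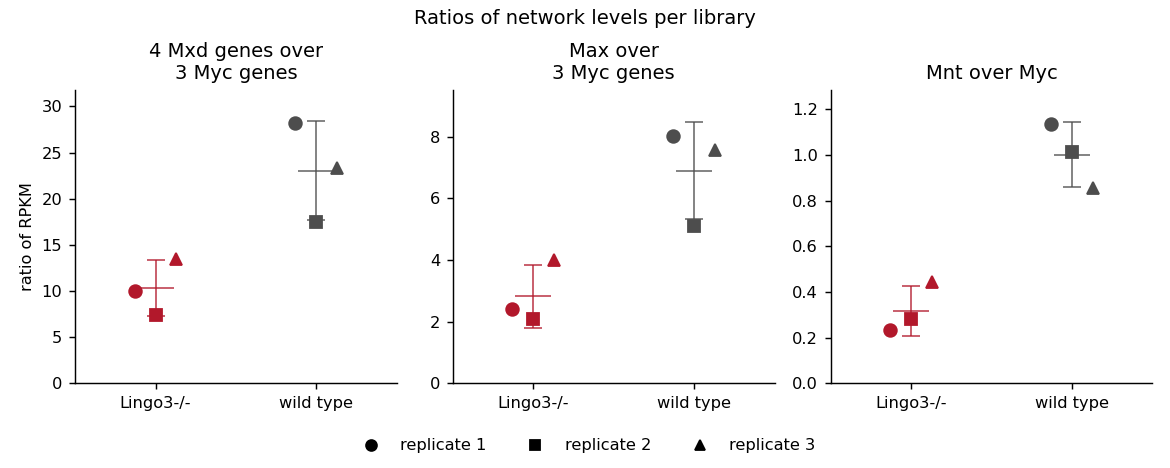
Ratios of RPKM within each library, for the Mxd genes over the Myc genes, Max over the Myc genes, and Mnt over Myc, with Lingo3-/- on the left and wild type on the right. Points are libraries and bars are the mean and SD of 3. In each panel the highest Lingo3-/- library, replicate 3, is below the lowest wild type library.

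Of 10 genes listed as Myc coactivators, 2 rose and 1 fell, with a list median of 0.11 on the log2 scale. Over all genes 9.43% rose and 5.97% fell, and these few calls alone are no result about the list. Knockout lay above wild type in every library for 5 of the 10 and below for 1, against 19.7% and 16.0% of all genes. Whether the list differs from the background was not tested. Ruvbl2, an ATPase of chromatin remodelling complexes, rose (log2 fold change 0.62 ± 0.10, SE; edgeR adjusted p = 0.00294). Actl6a, an actin-related subunit of the same kind of complex, rose by 0.41 (edgeR adjusted p = 0.0155), a call lost without knockout replicate 2 or 3. Without knockout replicate 2 or 3, 1 coactivator rose, without knockout replicate 3 or wild type replicate 3, 0 fell. With library totals only, 5 coactivators rose and 0 fell. That scaling moved the median over all genes upwards by 0.28 on the log2 scale, and the counts under it below include this shift.

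Of 10 genes listed as corepressors of Mxd and Mnt, 4 rose and 0 fell, against 9.43% and 5.97% of all genes, with a list median of 0.10. They were Sap30 (log2 fold change 0.88, edgeR adjusted p = 0.0171), Rbbp7 (0.68, 0.0036), the deacetylase gene Hdac2 (0.54, 0.0104) and Sap18 (0.33, 0.0487). Without knockout replicate 2, 2 rose, without knockout replicate 3, 1 rose. With RLE or upper-quartile factors, DESeq2 or limma-voom 3 rose, and with library totals only 7 rose. Rbbp7 kept its call without any single library. Sap30 lost its call without knockout replicate 2 or 3, Hdac2 without knockout replicate 3, and Sap18 without knockout replicate 2 or 3 or wild type replicate 2 or 3. Sap18, just inside the threshold, was also not called with RLE or upper-quartile factors, DESeq2, limma-voom, a mean CPM of at least 1 or nuclear protein-coding genes only.

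Of 13 genes that set the stability of Myc protein, 2 rose and 1 fell, with a list median of 0.00. This is close to the 15.4% called over all genes and is no result about the list. Cip2a, an inhibitor of the phosphatase that destabilises Myc, rose (log2 fold change 0.68 ± 0.14, SE; edgeR adjusted p = 0.00916). The mitotic kinase gene Aurka rose by 0.66 (edgeR adjusted p = 0.0211), a call lost without knockout replicate 2 or wild type replicate 3. The kinase gene Pim1 fell by 0.53 (edgeR adjusted p = 0.0299), a call lost without knockout replicate 2 or 3 or wild type replicate 2 or 3, and with library totals only, where 5 genes of the list rose.

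Of 8 regulators of Myc transcription or of its RNA, 0 passed by edgeR, with 4 at an unadjusted p under 0.05 and 1 higher by DESeq2 and by limma-voom. Without the share of all genes under that p, the 4 are no result about the list. The smallest p belonged to Cnbp, which encodes a nucleic acid binding protein (log2 fold change 0.33, edgeR adjusted p = 0.0503), and to Igf2bp1, an RNA-binding protein gene (-0.88, 0.0787). The list median was 0.06. Without knockout replicate 1 or without wild type replicate 1, 1 gene of the list rose, and with library totals only 5 rose.

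Genes that Myc is known to activate mostly had positive fold changes, and many rose. The lists of such genes were chosen with earlier results of these data known, so their counts are a description and no independent check. Of 57 genes of nucleolar, mitochondrial and growth functions known to be induced by Myc, 56 were tested, and Plk4 did not pass the filter. Of these 23 rose, 1 fell and 32 did not pass, against 9.43% of all genes higher. Their median log2 fold change was 0.38, against -0.03 over all genes, and 53 of 56 had a positive value. Knockout lay above wild type in every library for 41 of the 56, against 19.7% of all genes. Their summed level was 1672, 1670 and 1621 CPM in knockout replicates 1, 2 and 3, against 1369, 1191 and 1234 CPM in wild type replicates 1, 2 and 3. All knockout sums were above all wild type sums.

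The largest rise of the list was in Hspd1, the mitochondrial chaperonin, at 128 ± 16.5 CPM in knockout and 60.6 ± 3.03 CPM in wild type (SD, n = 3 each; log2 fold change 1.07 ± 0.11, SE; edgeR adjusted p = 0.000785). Tmem97, a membrane protein of sterol handling, rose by 1.06 (edgeR adjusted p = 0.000785). Grwd1, a ribosome assembly factor, rose by 0.79 (edgeR adjusted p = 0.00712) and Cdk4, the kinase of the entry into the cell cycle, by 0.69 (edgeR adjusted p = 0.00194). The calls of Hspd1, Tmem97, Grwd1 and Cdk4 held without any single library. Dusp2, a phosphatase gene, was the member that fell, at 1.27 ± 0.362 CPM in knockout and 3.49 ± 0.736 CPM in wild type (SD, n = 3 each; log2 fold change -1.43 ± 0.27, SE; edgeR adjusted p = 0.00667). The number that rose was 14 without knockout replicate 2, 15 without knockout replicate 3, 15 without wild type replicate 3 and 48 with library totals only.

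Of 20 classical Myc targets, 11 rose and 0 fell, against 9.43% and 5.97% of all genes, with a median log2 fold change of 0.52 and 19 positive values. This list too was chosen with earlier results of these data known and is no independent check. Their summed level was 1354, 1490 and 1562 CPM in knockout replicates 1, 2 and 3, against 1308, 1044 and 1071 CPM in wild type replicates 1, 2 and 3. All knockout sums were above all wild type sums, knockout replicate 1 and wild type replicate 1 by the least. Tfrc, the transferrin receptor, rose by 0.83 (edgeR adjusted p = 0.0248), a call lost without knockout replicate 2 or 3 or wild type replicate 2 or 3. Dkc1, which encodes the pseudouridine synthase dyskerin, rose by 0.80 (edgeR adjusted p = 0.00191). The transcription factor gene Tfap4 rose by 0.76 (edgeR adjusted p = 0.005) and Prps2, a nucleotide synthesis enzyme, by 0.75 (edgeR adjusted p = 0.00199). With library totals only 18 rose. The 2 lists of induced genes share 0 genes with each other and 0 with the proliferation and crypt base markers. Levels of those markers were higher in the same libraries. The growth list does hold cell cycle genes, such as Cdk4, so sharing 0 genes does not set it apart from dividing cells. The part of dividing cells in these rises was not tested.

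Genes that Myc is known to repress moved in both directions. Of 9 such genes, 1 rose, 2 fell and 6 did not pass, against 15.4% of all genes called, with a median of -0.20. Ndrg2, a differentiation-linked gene, rose by 0.68 (edgeR adjusted p = 0.00867), a call lost without knockout replicate 3. The stress genes Gadd45b and Gadd45a fell by 0.78 and 0.42 on the log2 scale (edgeR adjusted p = 0.0156 and 0.0427). The fall of Gadd45b was not called without knockout replicate 3 or wild type replicate 1, and with single libraries left out that of Gadd45a was called only without wild type replicate 2. With library totals only 3 rose and 0 fell, and by DESeq2 or limma-voom 1 fell.

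Among 8 targets of Mlx and the Mondo proteins, 0 passed by edgeR, with 1 at an unadjusted p under 0.05, 1 higher by DESeq2 and 0 by limma-voom. The pyruvate kinase gene Pklr did not pass (log2 fold change -0.18, edgeR adjusted p = 0.256). The list median was -0.08. Without knockout replicate 1 or without wild type replicate 3, 1 gene of the list rose, and with library totals only 3 rose.

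**Figure D5:**
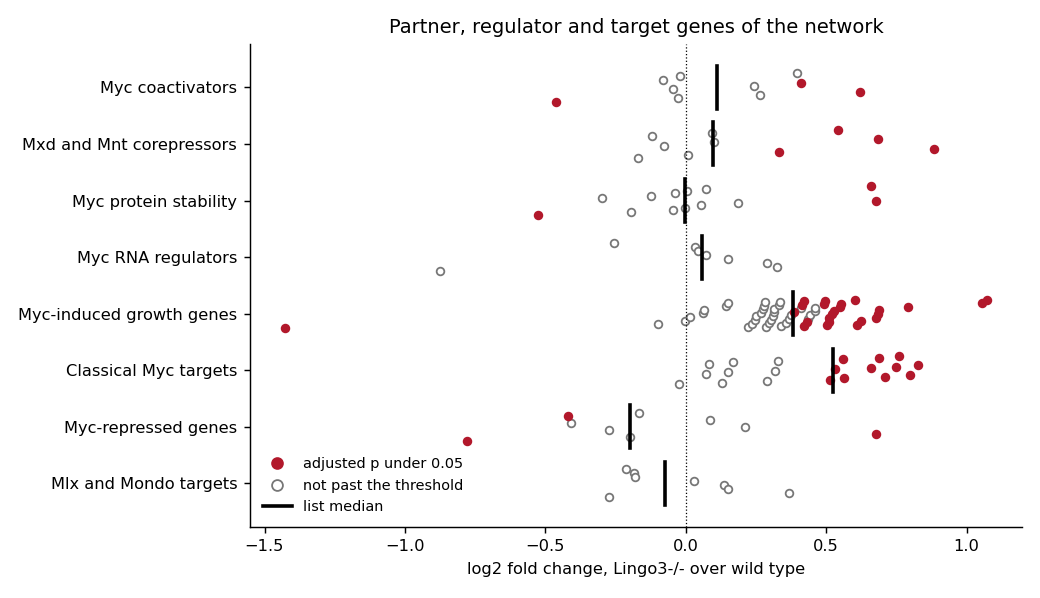
Log2 fold change, Lingo3-/- over wild type, of each tested gene in 8 lists of genes that work with, regulate or respond to the network. Filled points passed an edgeR adjusted p of 0.05, open points did not, and bars are list medians. The lists of Myc-induced growth genes and classical Myc targets have medians of 0.38 and 0.52, and the medians of the other lists lie between -0.20 and 0.11.

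The E-box was also searched in the RefSeq promoter windows of the induced genes. It occurred in 15 of the 52 Myc-induced growth genes with a window (28.8%), in 8 of 20 that rose (40%) and in 6 of 30 that did not pass (20%). Among the classical targets it occurred in 4 of 16 (25%), in 1 of 9 that rose (11.1%) and in 3 of 7 that did not pass (42.9%). The counts ran in opposite directions in the 2 lists. Over all genes with a window, expressed here or not, the share was 8.09%. It was 2 of 9 (22.2%) for differentiated colonocyte markers and 1 of 6 (16.7%) for pan-epithelial markers. It was 0 of 8 for proliferation markers and 0 of 6 for crypt base markers. The windows of Hspd1, Cdk4 and Dusp2 are shown as those of the largest rise, of a gene with 4 E-boxes, and of the gene that fell, with the E-box in capitals.
Hspd1, chr1:55088298-55088343, minus strand: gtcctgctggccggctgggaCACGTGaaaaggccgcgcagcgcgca
Cdk4, chr10:127063397-127063442, plus strand: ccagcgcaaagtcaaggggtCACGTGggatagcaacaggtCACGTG
Dusp2, chr2:127336030-127336075, plus strand: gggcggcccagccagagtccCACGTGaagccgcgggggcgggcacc
The E-box of Hspd1 ends 75 bases before the start and that of Dusp2 104 bases before it. These 3 windows are examples and describe sequence only.

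Likeness was measured as the root mean square difference of log2 CPM, centred on each gene's own mean, over the 6 libraries and among 8061 protein-coding genes with a mean of at least 10 CPM. The genes most like Myc were Oas2 (difference 0.199), Nusap1 (0.214), Il1r1 (0.226) and Jag1 (0.230). Oas2 encodes an interferon-induced enzyme, Nusap1 a spindle protein, Il1r1 the interleukin 1 receptor and Jag1 a Notch ligand. Jag1 had 19.2 ± 3.31 CPM in knockout and 12.3 ± 1.06 CPM in wild type (SD, n = 3 each), and rose by 0.66 on the log2 scale (edgeR adjusted p = 0.00916). Oas2 lost its call without knockout replicate 1, wild type replicate 1 or wild type replicate 3.

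The genes most like Mnt were Sh3tc1 (difference 0.0834), the histone H4 gene Hist4h4 (0.0966), the mitochondrially encoded mt-Co1 (0.103) and Kctd18 (0.109). Reads of near-identical histone genes can be split between copies, so Hist4h4 is uncertain. All 4 were lower in knockout in every library, and mt-Co1 lost its call without wild type replicate 2 or any knockout replicate and with library totals only. Kctd18 also lost its call with library totals only. Mycl, with a mean of 7.66 CPM, was below the level required for this measure. The 6 libraries fall into 2 genotypes, so this measure includes the difference between them.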

How the data were processed

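RNA-seq of 3 Lingo3-/- and 3 wild type libraries was used. The deposited table of counts holds raw counts by Ensembl gene, made by the authors with HTSeq per the submitters' processing notes, which also name Trimmomatic 0.39, STAR, DESeq2 and GRCm38. Library preparation used a stranded TruSeq kit with removal of ribosomal RNA, per the labels' protocols. Whether counting used strand, and which annotation release, is not given in the sources used here. HTSeq summary lines, 53.6 to 57.0% of reads in knockout and 56.6 to 60.0% in wild type, were left out of library sizes. The deposited comparison table gives, per the file headers, log2 fold changes and p-values by DESeq2, a test score and normalized values (signal) per library, and its values are quoted only where named.

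Counts were filtered with filterByExpr (minimum count 10, minimum total 15), scaled with TMM factors and fitted for genotype alone in edgeR 4.0.16 under R 4.3.3 (robust quasi-likelihood fit, 2-sided test). P-values were adjusted by Benjamini-Hochberg across 16856 genes, at a threshold of 0.05. DESeq2 1.42.0 and limma 3.58.1 served as alternatives. Log2 CPM used a prior count of 2, and RPKM used merged GENCODE M21 exons, which named 98.2% of identifiers. Intervals are 95% intervals of the fit, and floors cover counting error only. Precision follows depth, lowest in knockout replicate 3 with 11868000 counts. No 2 libraries of a group agreed within sampling noise (chi-square per degree of freedom at least 8.81).

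Other settings tried were factors by RLE or upper quartile, library totals only, both alternative tools, a filter of 1 CPM on the mean or none, nuclear protein-coding genes only, a replicate block, single libraries left out, and an adjusted p under 0.1. The members and the lists were chosen with earlier results of these data known. Named were all members, 3 further partners, from each list at most the 4 largest called changes in each direction or the 2 smallest p where none was called, and the 4 genes most like each called member with a mean of at least 10 CPM. Of the genes this rule names, 2 are not reported here.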

Additional observations from a re-analysis of the deposited data

How the results depend on the processing

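The calls of Myc, Mycl and Mnt held in every alternative run. Over all genes, 2596 were called, against 5835 with library totals only, 3942 at an adjusted p under 0.1, and 1124 to 2686 with each library left out. With library totals the median over all genes moved up by 0.28 (log2). Of the members, 3 were called, against 5 with library totals only, 5 with no filter, 6 at an adjusted p under 0.1 and 3 to 5 with each library left out. Myc-induced growth genes higher numbered 23, against 48 with library totals only and 14 to 25 with each library left out, and classical targets 11, against 18 with library totals only. With library totals only, Mycn (0.17), Mxd1 (0.015), Mxd3 (0.11), Mlxip (0.14) and Mlxipl (0.094) changed sign without a call, and Mga (0.28) changed sign and was called. None of these was above that shift. The members gained under it were Mxd4 and Mlx. Mga also turned to 0.012 with DESeq2 and 0.0079 with no filter and ran from -0.0114 to 0.0333 with each library left out, and Mycn from -0.38 to 0.0564. Except for that shift, the cause of these changes was not tested. Mycn gave no value with a mean CPM of at least 1 or without wild type replicate 2.

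The replicate numbers did not pair the libraries (correlations of same-numbered deviations -0.01, -0.12 and -0.10). With the replicate block 2061 genes and 5 members were called, Mxi1 (edgeR adjusted p = 0.0409, range 0.00118 to 0.291) and Max (0.0481, range 0.00782 to 0.555) in addition. Of the list genes named above, Tfrc, Sap18 and Gadd45a were not called under it.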
